A study of Mus musculus with 6 samples.

Results

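The genes described here are the thioredoxin system, 4 peroxiredoxins and the transcription factor NRF2 with some of its classic targets: Txn1, Txnrd1, Srxn1, Prdx1, Prdx2, Prdx5, Prdx6, Nqo1, Gclm and Nfe2l2. All probes whose annotated symbol is one of these 10 genes were taken, which gave 17 of the 25697 probes on the array, for 8 of the 10 genes. Prdx5 and Prdx6 had no named probe here and are not analysed here. The RNA came from TUBO cells, an adherent epithelial line started from 1 mammary carcinoma of a female BALB-neuT mouse, a transgenic strain that develops mammary carcinomas. It was read on 6 single-colour Illumina bead arrays, 3 titled TMA and 3 titled TDA, to find the expression profile that goes with mammosphere medium.

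Both groups are the same line grown attached, with no other treatment. By title and growth protocol, TMA cells were kept in DMEM-F12 without serum, to which basic fibroblast growth factor and epidermal growth factor (20 ng/ml each), insulin (5 μg/ml) and bovine serum albumin (0.4%) were added, and TDA cells in DMEM containing fetal calf serum at 20%. The samples' source names give the media the other way round. Groups are therefore called by their titles, differences are TMA minus TDA, and no direction is tied to a medium. No label says whether the 3 replicates of a group were separate cultures, so the p-values rest on a spread that may be technical only. The arrays sat on 1 BeadChip, the TMA arrays in its first 3 positions, so position and group cannot be told apart.

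Cells remove hydrogen peroxide partly through peroxiredoxins, whose reactive cysteine is oxidised by the peroxide and then reduced again by thioredoxin. Thioredoxin reductase passes electrons from NADPH back to thioredoxin, and sulfiredoxin rescues peroxiredoxins that have been oxidised too far. NRF2, the product of Nfe2l2, is held low by KEAP1, which marks it for degradation. When electrophiles or oxidants modify KEAP1, NRF2 accumulates, pairs with small MAF proteins and binds antioxidant response elements near genes such as Nqo1, Gclm, Txnrd1, Srxn1 and Prdx1. In many carcinomas this programme is raised and helps the cells to withstand oxidants and drugs.

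Because NRF2 acts through a short DNA element, the promoters of the members were searched for its core, TGACNNNGC, on both strands. RefSeq windows on GRCm38.p6, 250 bases before a start and 50 after it, were found for 9 of the 10 genes, all but Prdx6, with 3 windows for Txnrd1. A match stood in 5 of these 9 genes, Txnrd1, Srxn1, Prdx1, Gclm and Nfe2l2, while 14% of all 27025 genes with a window held one. The windows of Txn1, Prdx2, Prdx5 and Nqo1 did not hold these letters. The 5 matches are shown with 10 bases on either side, each read so that the core runs 5′ to 3′, with the core in capitals:
Txnrd1, chr10:82859104-82859132, minus strand: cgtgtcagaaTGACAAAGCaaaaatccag
Srxn1, chr2:152105542-152105570, minus strand: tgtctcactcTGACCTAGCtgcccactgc
Prdx1, chr4:116685456-116685484, minus strand: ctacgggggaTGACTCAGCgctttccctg
Gclm, chr3:122245413-122245441, minus strand: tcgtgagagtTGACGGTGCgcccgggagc
Nfe2l2, chr2:75704885-75704913, minus strand: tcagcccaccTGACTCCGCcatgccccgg
The matches spanned bases -92 to -84 in the second Txnrd1 window, -133 to -125 in Prdx1, -134 to -126 in Gclm and -240 to -232 in Nfe2l2, counted back from the start. The Srxn1 match lay after the start, at bases 29 to 37. The core in Prdx1 overlapped a match to the AP-1 site TGANTCA, which 8.97% of all genes held in their window, and the other 4 cores did not.

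For Prdx1, whose core overlaps the AP-1 site, and for the NRF2 gene itself, the 250 bases before the start are given on the gene's strand, with the core (on the opposite strand in Prdx1) in capitals:
Prdx1, chr4:116685349-116685598, plus strand: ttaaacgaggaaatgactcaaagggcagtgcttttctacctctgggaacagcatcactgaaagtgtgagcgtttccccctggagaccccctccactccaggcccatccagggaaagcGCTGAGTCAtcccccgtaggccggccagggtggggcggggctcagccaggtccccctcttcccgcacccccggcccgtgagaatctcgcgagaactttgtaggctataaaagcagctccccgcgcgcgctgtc
Nfe2l2, chr2:75704664-75704913, minus strand: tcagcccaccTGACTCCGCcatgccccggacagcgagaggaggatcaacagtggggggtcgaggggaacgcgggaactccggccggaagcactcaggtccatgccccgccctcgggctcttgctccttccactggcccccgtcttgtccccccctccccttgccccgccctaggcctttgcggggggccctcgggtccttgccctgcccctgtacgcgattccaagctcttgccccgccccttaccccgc
A match describes these letters and is not evidence that NRF2 bound there in TUBO cells. Every value below is the log2 of a normalised signal, or a difference of such values.

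None of the member genes passed the test between the groups. Of 12848 probes tested across the array, those whose mean log2 signal over the 6 arrays exceeded the median of all probes (7.01), limma called 387 at an adjusted p of 0.05, or 3.01%. By brightest probe, 3.42% of the 8964 tested genes were called. Of the members, 11 of 17 probes passed this filter and covered all 8 genes, and limma called 0 of the 11 probes and 0 of the 8 genes. At an unadjusted p under 0.05 there were also 0 in limma, where 18.5% of all tested probes and 19.3% of all tested genes lay. At the array's background rate fewer than 1 call would be found among so few probes, so the count of 0 called is near the background and does not set the members apart. The groups overlapped at all 11 tested member probes, and over all tested probes they did not overlap at 23%. So few probes, from 8 genes, do not set the members apart in this either. The gene differences, by brightest probe, ran from -0.45 for Txn1 to 0.35 for Srxn1, 5 positive and 3 negative, with a median of 0.11 against -0.0047 over all tested genes. Their median size regardless of sign was 0.29, against 0.23 over all tested genes, and the smallest difference that limma called on this array was 0.76.

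**Figure D1:**
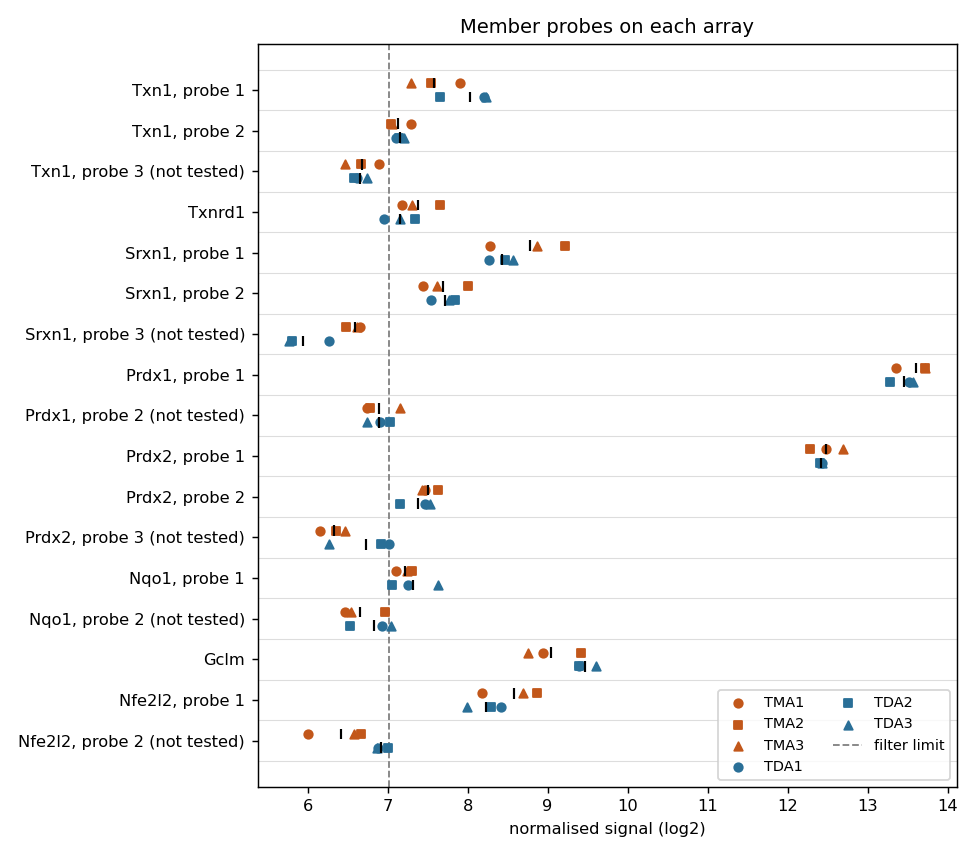
Normalised signal (log2, horizontal axis) of the 17 member probes on each of 6 arrays, TMA in orange and TDA in blue, with black ticks at the group means and a dashed line at the filter limit of 7.01. The groups overlap at each of the 11 tested probes, and 2 of the 6 untested probes, Srxn1 probe 3 and Nfe2l2 probe 2, show groups that do not overlap.

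Txn1 encodes cytosolic thioredoxin, the small disulfide reductase that renews oxidised peroxiredoxins. Its brightest probe (ILMN_3009572) read 7.91, 7.54 and 7.30 across TMA1 to TMA3 and 8.21, 7.65 and 8.22 across TDA1 to TDA3. TDA1 and TDA3 lay above all TMA arrays, while TDA2 lay among them. The difference was -0.45 with a standard error of 0.24 and a 95% confidence interval of -0.96 to 0.07 (limma adjusted p = 0.349). With array quality weights, which put the most weight on TDA1 and the least on TDA2, it was -0.67 and passed (limma adjusted p = 0.0294). Those weights raised the calls over the whole array from 387 to 1906 of 12848 probes. The other tested Txn1 probe (ILMN_1377922) stayed between 7.04 and 7.29 on all 6 arrays, with a difference of -0.02 and an interval of -0.43 to 0.39, so the probes of this gene do not share the pattern of the brightest one. The dimmest probe (ILMN_2588054) was too dim to be tested and differed by 0.03.

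Txnrd1, the cytosolic thioredoxin reductase and an NRF2 target, had 1 probe (ILMN_2484465). It read 7.17, 7.66 and 7.30 across TMA1 to TMA3 and 6.95, 7.34 and 7.16 across TDA1 to TDA3, so the highest array of each group was the second and the groups overlapped. The difference was 0.23 ± 0.21 (standard error), with an interval of -0.23 to 0.69 (limma adjusted p = 0.633). All of these values lie little above the filter limit. The tested genes with the profile most like that of Txnrd1 were Vps39, Spindoc and Msx1, whose values, each centred on the gene's own mean, differed from it by 0.035, 0.039 and 0.042 on average over 6 arrays.

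Srxn1 encodes sulfiredoxin, which returns overoxidised peroxiredoxins to the cycle. Its brightest probe (ILMN_2677772) read 8.28, 9.21 and 8.86 across TMA1 to TMA3 and 8.26, 8.47 and 8.56 across TDA1 to TDA3. TMA2 and TMA3 exceeded every TDA array, and TMA1 lay with the TDA arrays. The difference of 0.35 ± 0.25 (standard error) was the highest among the members, with an interval of -0.18 to 0.89 (limma adjusted p = 0.498). The next probe (ILMN_2667346) differed by -0.03, with an interval of -0.49 to 0.44. A further probe (ILMN_1229994), below the filter and so without a test, read 6.66, 6.49 and 6.62 across TMA1 to TMA3 and 6.26, 5.80 and 5.77 across TDA1 to TDA3. Its groups did not overlap and differed by 0.64, and without the filter its adjusted p was 0.199 in limma. The 3 Srxn1 probes therefore gave 3 different sizes of difference.

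Both member peroxiredoxins with a probe, Prdx1 and Prdx2, differed by less than their standard errors at the probe that stands for the gene. Prdx1, an abundant peroxide-reducing enzyme of the cytosol, read 13.36, 13.72 and 13.72 across TMA1 to TMA3 and 13.52, 13.27 and 13.56 across TDA1 to TDA3 (ILMN_1223738). Its difference was 0.15 ± 0.20 (standard error), with an interval of -0.29 to 0.59 (limma adjusted p = 0.770), and its fold lay between 0.816 and 1.51 at 95% confidence. A second Prdx1 probe (ILMN_2989706) lay below the filter, at 6.74 to 7.15, and differed by -0.0038. The tested genes with the most similar profiles, Cyhr1, Pgap6 and Tmem38b, differed from Prdx1 by 0.027, 0.039 and 0.040 on average after centring.

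Prdx2, a close relative of Prdx1 that is best known from red blood cells, read 12.47, 12.28 and 12.69 across TMA1 to TMA3 and 12.43, 12.40 and 12.43 across TDA1 to TDA3 (ILMN_2773554). The TDA arrays thus fell inside the range of the TMA arrays, and their standard deviation was 0.017 against 0.20. The difference was 0.06 ± 0.20 (standard error), with an interval of -0.36 to 0.49 (limma adjusted p = 0.914). The second probe (ILMN_2638354) differed by 0.12, with an interval of -0.31 to 0.55, and the last (ILMN_1242829), below the filter, by -0.41 with overlapping groups. The sign at the brightest Prdx1 and Prdx2 probes was not the same in every fit. The differences were -0.03 and -0.05 under median scaling, and -0.04 and -0.06 in the authors' log2 table, but 0.06 and 0.02 with cyclic loess scaling.

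Nqo1 and Gclm are among the genes most often used to read NRF2 activity. Nqo1, a quinone reductase, read 7.10, 7.31 and 7.24 across TMA1 to TMA3 and 7.26, 7.05 and 7.63 across TDA1 to TDA3 (ILMN_2726371). These values lie close to the filter limit, and the TMA arrays lay within the range of the TDA arrays. The difference was -0.10 ± 0.21 (standard error), with an interval of -0.56 to 0.36 (limma adjusted p = 0.861). A second probe (ILMN_2766386), below the filter, differed by -0.17. Signals this near the limit leave little room to see a lower level in either group.

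Gclm, the modifier subunit of the enzyme that sets the rate of glutathione synthesis, had 1 probe (ILMN_1256354), which read 8.95, 9.42 and 8.76 across TMA1 to TMA3 and 9.39, 9.39 and 9.61 across TDA1 to TDA3. TMA1 and TMA3 lay below every TDA array, and TMA2 lay among them. The difference was -0.42 ± 0.22 (standard error), with an interval of -0.90 to 0.06 (limma adjusted p = 0.339). It was negative under all 16 alternatives of the fit, from -0.61 to -0.28, and was called under none of them.

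Nfe2l2, which encodes NRF2 itself, read 8.18, 8.87 and 8.69 across TMA1 to TMA3 and 8.41, 8.29 and 8.00 across TDA1 to TDA3 at its brighter probe (ILMN_1224128). TMA2 and TMA3 exceeded the TDA arrays, and TMA1 was among them. The difference was 0.35 ± 0.23 (standard error), with an interval of -0.15 to 0.85 (limma adjusted p = 0.471). The dimmer probe (ILMN_1214369), below the filter, went the other way: it read 6.00, 6.67 and 6.59 across TMA1 to TMA3 and 6.88, 7.00 and 6.87 across TDA1 to TDA3, groups that did not overlap, with a difference of -0.50 and an adjusted p of 0.401 in limma without the filter. The probes of Nfe2l2 thus differed in sign, but neither was called and the dimmer one was too dim to be tested. NRF2 is controlled largely through protein stability, which an array of transcripts does not measure.

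Among the 8 member genes, by brightest probe, TMA2 was the highest of the TMA arrays at 6 and TMA1 the lowest at 5. The members averaged 9.18, 9.50 and 9.32 across TMA1 to TMA3 and 9.30, 9.23 and 9.40 across TDA1 to TDA3, so the TDA arrays lay inside the spread of the TMA arrays. Over the 6 arrays the tested member probes ranged by 0.25 for the second Txn1 probe to 0.95 for the first Srxn1 probe, against a median range of 0.77 over all tested probes. Average raw intensity was 560 to 635 on 5 arrays and 845 on TDA1, a gap that the normalization removes. Of 7 epithelial markers with a probe, 6 lay above the filter, all but Krt19, and the 7 averaged 11.36 to 11.97 on TMA arrays and 11.13 to 11.25 on TDA arrays, without overlap. All 6 tested ones had a positive difference. Krt7, Krt8 and Krt18 differed by 0.09, 0.23 and 0.29, and Cdh1, Cldn3 and Cldn4 by 0.47, 0.71 and 1.90. The average thus leans on Cldn4, and the groups did not overlap at 2 of the 6, against 23% of all tested probes. Limma called 0 of the 6, with 3, Cdh1, Cldn3 and Cldn4, at an unadjusted p under 0.05. Over all tested genes 3.42% were called and 19.3% had an unadjusted p under 0.05. Whether these markers have a part in the other differences was not tested. Above the filter lay 1 of 7 fibroblast markers, 2 of 5 for leukocytes, 2 of 4 for endothelium and 1 of 4 for adipocytes, and limma called 0 of those 6 genes, with 0 at an unadjusted p under 0.05. Collagen genes Col1a1 and Col3a1, the leukocyte gene Ptprc and the adipocyte gene Adipoq lay below the filter, while the leukocyte marker Cd14 had means of 13.70 on TMA and 14.30 on TDA arrays.

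**Figure D2:**
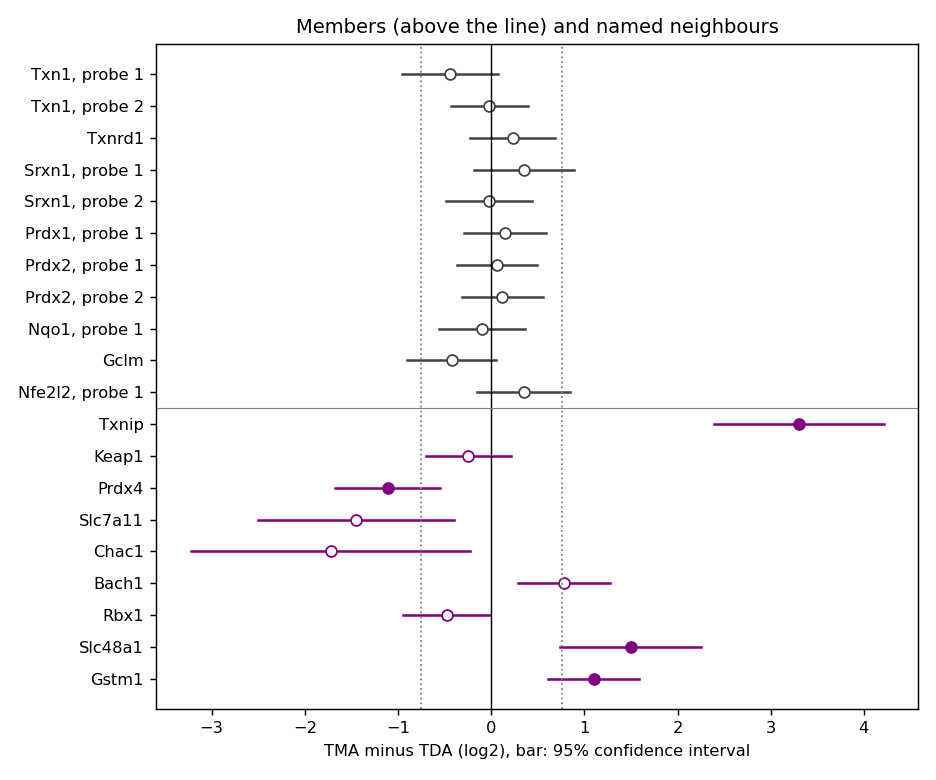
TMA minus TDA (log2, horizontal axis) with 95% confidence intervals for the 11 tested member probes, above the line, and 9 named genes of the related lists, below it; filled points passed an adjusted p of 0.05 in limma, and dotted lines mark 0.76, the smallest difference called. All member intervals include 0, while Txnip stands apart at 3.30.

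Next to the members, the gene of thioredoxin's inhibitor rose. Txnip encodes the protein that binds reduced thioredoxin and blocks it, and that also limits glucose uptake. It read 11.77, 13.75 and 13.47 across TMA1 to TMA3 and 9.39, 10.11 and 9.58 across TDA1 to TDA3, without overlap, and rose by 3.30 ± 0.42 (standard error, limma adjusted p = 0.00828). The call was lost without TMA3 or TDA1, with adjusted p of 0.0555 and 0.0578 and differences of 3.07 and 3.15. Of 11 other thioredoxin and glutaredoxin genes, 8 were tested, 1 rose and 0 fell, with a median of -0.21. In limma 2 of the 8 had an unadjusted p under 0.05, against 19.3% of all tested genes, of which 3.42% were called. The mitochondrial thioredoxin Txn2 differed by -0.17, its reductase Txnrd2 by -0.31, and the cytosolic glutaredoxin Glrx by 0.82, with limma adjusted p of 0.709, 0.512 and 0.182. Of 3 probes of the glutaredoxin gene Glrx2, the brightest differed by -0.34. Another, annotated to a different transcript of the gene, rose by 0.90 (limma adjusted p = 0.0416). A dimmer probe for that same transcript, below the filter, differed by 0.26. The Glrx2 probes thus differed in sign. Txn2, Txnrd2, Glrx and Glrx2 were named after their values were seen.

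Among the other enzymes that remove peroxide and superoxide, only the secretory-pathway peroxiredoxin was called. Of 18 genes 15 were tested, 0 rose and 1 fell, with a median of -0.17. In limma 4 of the 15 had an unadjusted p under 0.05, against 19.3% of all tested genes, of which 3.42% were called. Prdx4, which handles peroxide in the endoplasmic reticulum, read 11.08, 10.20 and 10.52 across TMA1 to TMA3 and 12.08, 11.46 and 11.59 across TDA1 to TDA3. Its groups did not overlap, and it fell by 1.11 on the log2 scale (standard error 0.26, limma adjusted p = 0.0427). It lost its call in 9 of 16 alternatives, among them without TMA2, TMA3, TDA1 or TDA3, with differences of -0.91, -1.07, -0.93 and -1.17 and adjusted p up to 0.195. Whether its difference was unlike those of Prdx1 and Prdx2 was not tested.

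Among the genes of glutathione synthesis and recycling, Slc7a11 and Chac1 were highest on 1 array, TDA2. Of 8 genes of this list 6 were tested and 0 were called by limma, with 2 at an unadjusted p under 0.05 and a median of -0.44. The shares over all tested genes were 3.42% called and 19.3% at an unadjusted p under 0.05. Slc7a11, the cystine importer, read 7.53, 6.80 and 6.83 across TMA1 to TMA3 and 7.89, 9.97 and 7.64 across TDA1 to TDA3. Chac1, which breaks glutathione down and is a target of the stress factor ATF4, read 10.30, 8.53 and 8.74 across TMA1 to TMA3 and 10.13, 12.92 and 9.69 across TDA1 to TDA3. TDA2 was far above the other arrays for both genes, while Gclm, at 9.39 on TDA2, and Gss, the glutathione synthetase, at 6.99, its lowest array, did not share that peak. Slc3a2, a tested gene of the same list, was also highest on TDA2, at 7.61 against 6.83 to 7.33. So was Sqstm1, of the regulators of NRF2, at 13.35 against 10.93 to 12.25. The differences were -1.45 and -1.72, with adjusted p of 0.127 and 0.200 in limma, and without TDA2 they were -0.71 and -0.72, with adjusted p of 0.126 and 0.334. With array quality weights, Slc7a11 at -1.09 and Ggct, an enzyme of the gamma-glutamyl cycle, at -0.74 passed (limma adjusted p of 0.0307 and 0.0165). That setting called 1906 of all 12848 tested probes. Gss, Ggct, Slc3a2 and Sqstm1 were named after their values were seen.

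The regulators of NRF2 held no called gene. Of 10 genes 9 were tested, with a median of 0.23. Limma called 0 of them, and 2 reached an unadjusted p under 0.05, against 3.42% and 19.3% of all tested genes. With so few genes, the count of 0 called is near the background. Keap1, the adaptor that targets NRF2 for degradation, differed by -0.25 ± 0.21 (standard error, limma adjusted p = 0.605), and its 3 other probes by -0.27, -0.11 and 0.03. Bach1, a repressor that competes with NRF2 for its element, read 10.24, 10.20 and 10.48 across TMA1 to TMA3 and 9.91, 9.49 and 9.16 across TDA1 to TDA3, without overlap. Its difference of 0.78 ± 0.23 (standard error) did not pass over all probes (limma adjusted p = 0.0846). Rbx1, the RING subunit of the KEAP1 ubiquitin ligase, differed by -0.48 (limma adjusted p = 0.259). With array quality weights it differed by -0.62, which passed (limma adjusted p = 0.0286), in a fit that called 1906 of all 12848 tested probes.

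Of the other NRF2 targets, Gstm1 and Slc48a1 rose. Of 22 genes 14 were tested, 2 rose and 0 fell, and 11 had a positive difference. The median was 0.40 against -0.0047 over all tested genes, of which 1.72% were called higher and 1.71% lower. In limma 6 of the 14 had an unadjusted p under 0.05, against 19.3% of all tested genes. Gstm1, a glutathione transferase, read 10.55, 10.47 and 10.18 across TMA1 to TMA3 and 9.39, 8.92 and 9.60 across TDA1 to TDA3, and rose by 1.10 ± 0.23 (standard error, limma adjusted p = 0.0263). A second Gstm1 probe (ILMN_2626491), below the filter, differed by 0.19 with overlapping groups. Slc48a1, a heme transporter, read 10.42, 11.44 and 11.38 across TMA1 to TMA3 and 9.84, 8.81 and 10.10 across TDA1 to TDA3, and rose by 1.50 ± 0.35 (standard error, limma adjusted p = 0.0424). At the brightest probe of either gene the groups did not overlap. Of 16 alternatives, the Gstm1 call was lost in 5 and the Slc48a1 call in 9. Gstm1 lost it without TMA2, TMA3 or TDA1, with differences of 1.06, 1.21 and 1.14. Slc48a1 lost it without TMA2, TMA3, TDA1 or TDA3, with differences of 1.32, 1.35, 1.63 and 1.75. Adjusted p in limma was 0.0528 to 0.197 in these fits. Both lost it under median scaling (limma adjusted p of 0.0789 and 0.0908) and in the authors' log2 table (0.0511 and 0.0964). Slc48a1 alone also lost it without background correction, with an offset of 16 and with the stricter filter (limma adjusted p of 0.0831, 0.0538 and 0.0528). The heme oxygenase gene Hmox1, the most often cited stress-inducible target and named after its value was seen, differed by 0.12 (limma adjusted p = 0.807).

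**Figure D3:**
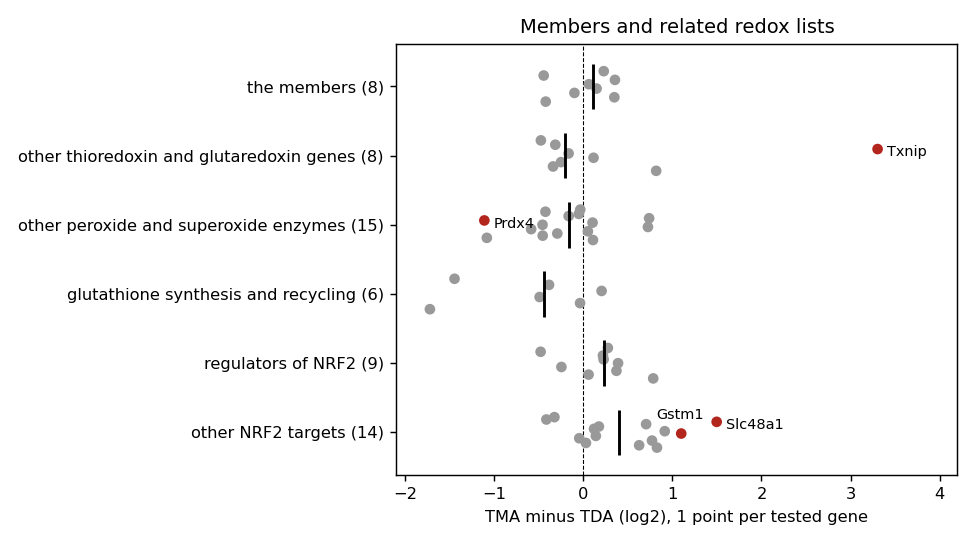
TMA minus TDA (log2, horizontal axis) of each tested gene, by brightest probe, for the 8 members and 5 related lists, with the number of genes in brackets; red points passed an adjusted p of 0.05 in limma and black bars are medians. The members lie between -0.45 and 0.35, while 3 genes of the related lists rose and 1, Prdx4, fell.

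**Figure D4:**
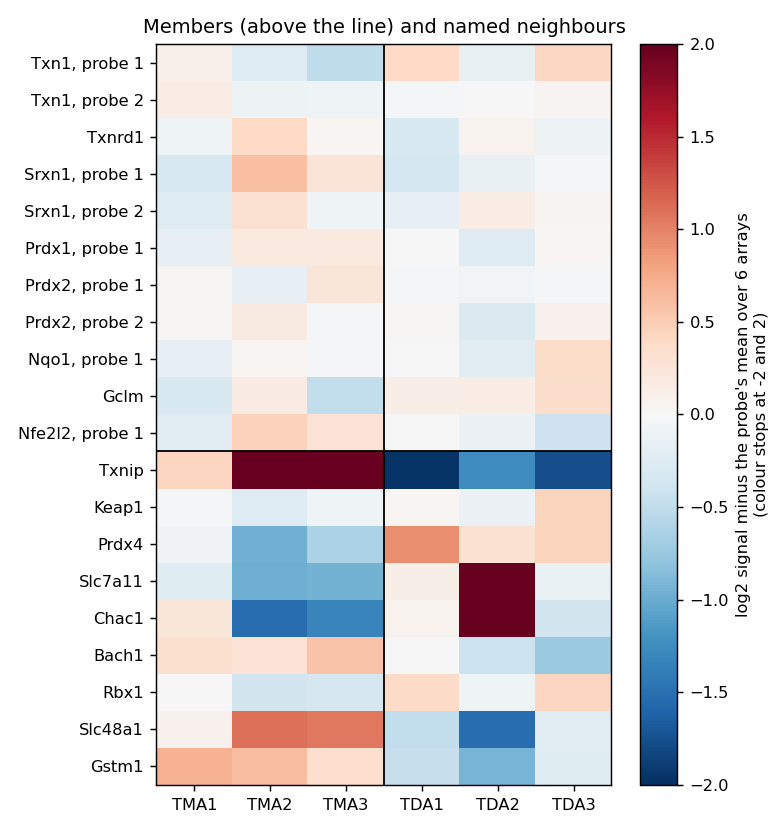
Log2 signal of the 11 tested member probes (above the line) and 9 named genes on each array, minus the probe's mean over 6 arrays, with colours stopping at -2 and 2. Member rows stay pale on all arrays, Txnip is high on TMA2 and TMA3 and low on the TDA arrays, and Slc7a11 and Chac1 are high on TDA2.

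Over the 5 related lists together, 52 of 69 genes were tested, 3 rose and 1 fell, with a median of 0.04. The 4 called compare with 3.42% of all tested genes, and the 16 of 52 at an unadjusted p under 0.05 with 19.3%. Of the 9 named genes outside the members, 8 had a promoter window, all but Slc48a1. Of these 0 held TGACNNNGC, against 14% of all genes with a window, and with so few genes this count is near that share. The search covered windows of 300 bases and does not bear on elements elsewhere.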

How the data were processed

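RNA extraction used Trizol and labelling followed the standard Illumina protocol, per the labels. One deposited table gives non-normalized intensities per probe and array, without detection p-values, and its minima show that background was still included. The other deposited table gives log2 values normalized by the authors. How they did so is not given in the sources used here.

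Normexp correction (offset 50), quantile normalization and a log2 transform were run in limma 3.58.1 (R 4.3.3), so differences include the offset and understate changes of dim genes. The platform annotation named 23846 of 25697 probes, and all 143 probes of the members and lists matched the RefSeq gene table. Probes above the median of all probe means (12848) were tested two-sided with lmFit and eBayes, and p-values were adjusted over them by Benjamini-Hochberg. The probe of highest mean stands for a gene. In simulated data the fit called 0 of 50 probes with a true log2 change of 0.5 and 14 of 50 with a change of 1. At changes of 1.6 and 2 it called 40 and 45 of 50, with 4 false calls. The simulation took the measured variance of each probe as its true one, drew the errors independently and changed 50 probes at each size. The real array held 387 calls, so the rate of detection there may differ. Under the simulated settings, changes of the size measured in the members would mostly go uncalled. Alternatives changed the background correction, scaling, filter, arrays, replicate block, weights or variance model. From each related list, up to 3 called genes were named, or the 2 with the smallest p, and always Txnip and Keap1. Likeness was the mean absolute difference of centred values. The members and lists were chosen with earlier results of these data known. Python 3.11.15 with matplotlib 3.10.9 drew the figures. The number of arrays limits the precision.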

Additional observations from a re-analysis of the deposited data

How the results depend on the processing

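The count of called member genes was 0 in 15 of 16 alternatives and 1, Txn1, with array quality weights. That fit called 1906 of all 12848 tested probes, against 387 in the main fit, so 1 call does not set the members apart. Their median difference stayed between -0.04 and 0.17, with -0.04 under both median scaling and the authors' table, and between 0.02 and 0.17 with 1 array left out. Of 170 member values under the alternatives, 13 had the opposite sign to the reported one, none larger than 0.096: -0.034 for Prdx1 and -0.049 for Prdx2 with median scaling, -0.038 and -0.056 in the authors' table, and 0.071 for the second Srxn1 probe with array quality weights. With 1 array left out, the others ranged from -0.23 to 0.058 for Nqo1, -0.040 to 0.16 for Prdx2, -0.18 to 0.096 for the second Srxn1 probe and -0.10 to 0.023 for the second Txn1 probe. The cause of these sign changes was not tested.

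The related lists held 4 called genes, but 2 without background correction, with an offset of 16 or with the stricter filter (37 genes tested), 1 with median scaling or in the authors' table, 11 with array quality weights, and 0 to 6 with 1 array left out: 1 without TMA2, 0 without TMA3 or TDA1 and 2 without TDA3. At 0 calls, 10 and 12 genes had an unadjusted p under 0.05 in limma. Over the whole array 387 probes were called, but 129 under median scaling, 198 with uncorrected background, 135 from the authors' log2 values, 232 with the stricter filter, 1906 with array quality weights and 3 to 682 with 1 array left out. Of those calls 50.6% were higher on TMA arrays, and 40.7% from the authors' values. Without TMA2, TMA3, TDA1 or TDA3, 12 of 21, 2 of 3, 7 of 8 and 65 of 112 calls were higher on TMA arrays.

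With the replicate number as a block, 518 probes, 5 genes of the related lists and 0 member genes were called. Deviations of arrays with the same number correlated at 0.13, 0.013 and 0.027, so only the first exceeded 0.1. All arrays but TMA2 and TDA3 correlated best with their own number, TDA2 at 0.013 against 0.0052 with TMA3. These correlations are small and the labels give no pairing, so the numbers are not taken to pair the arrays. Depth is limited by 3 arrays per group and by signals near the filter for Txnrd1, Nqo1 and the second Txn1 probe.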

Other observations

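Of the other NRF2 targets and peroxide enzymes, 4 and 1 further genes that did not pass the test are given here, named after their values were seen. Ephx1, an epoxide hydrolase, and Gstm5, a glutathione transferase, differed by 0.77 and 0.91 on the log2 scale, with limma adjusted p of 0.0907 and 0.111. Cbr1, a carbonyl reductase, and Osgin1, an oxidative stress response gene, differed by 0.63 and 0.70, with limma adjusted p of 0.218 and 0.238. Gpx1, the widely expressed glutathione peroxidase, differed by -1.08 (limma adjusted p = 0.0581), and it was among the 5 genes of the related lists called with the replicate number as a block. With array quality weights Ephx1, Gstm5, Cbr1 and Gpx1 passed, with differences of 0.84, 0.80, 0.80 and -0.79 and limma adjusted p of 0.00795, 0.0210, 0.0195 and 0.0455. That setting called 1906 of all 12848 tested probes.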
